A study of Sus scrofa with 13 samples.

Results

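Genes that heart muscle cells use to sense stretch and to answer mechanical load were followed in pig hearts 4 months after a myocardial infarction. The set was given by name and held 10 genes: ANKRD1, ANKRD2, CSRP3, XIRP1, XIRP2, FHL1, FHL2, DES, RCAN1 and ACTA1. Every probe set whose platform symbol was a name in the set was taken. This gave 10 probe sets for 7 genes, of 6765 genes with a single symbol on the array. The other 3 genes, ANKRD2, CSRP3 and ACTA1, had no probe set under their symbol and were not analysed here. ANKRD1, DES and RCAN1 had a pair of probe sets each, and 9 of the 10 probe sets passed the filter on low intensities. The probe set that did not pass was the dimmer of the pair for DES, with a mean log2 intensity of 3.24 after stem cells and 3.33 after saline, against a filter level of 3.36.

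Muscle cells of the heart carry much of their passive tension on titin, the giant spring of the sarcomere, and on the desmin filaments that tie neighbouring sarcomeres to each other and to the cell membrane. Proteins docked on titin, among them ANKRD1 and the LIM domain proteins FHL1 and FHL2, sit where the spring is stretched, and ANKRD1 and FHL2 are found in the nucleus as well. The Xin proteins XIRP1 and XIRP2 bind actin filaments at the intercalated discs, where force passes from cell to cell. RCAN1 binds and restrains the phosphatase calcineurin, and calcineurin in turn switches on a RCAN1 transcript through NFAT factors. ANKRD1 is known for rising in overloaded hearts.

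The animals were 13 female Sinclair miniswine, 3 months old at the operation, whose infarct was made by permanently tying off diagonal side branches of the left anterior descending artery. Of these, 7 animals then received 50000000 stem cells, which the labels call MPCs without spelling the name out. The cells were suspended in 2 ml of saline and divided among 5 injections around the infarct, and the other 6 animals received the saline alone, in the same volume and number of injections. Drill biopsies of the heart were taken at month 4, and each animal gave 1 Affymetrix porcine array. The infarct is common to both groups, no uninfarcted heart was analysed here, and the position of each biopsy relative to the scar is not given.

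The arrays had median intensities between 13.5 and 14 and any pair of arrays had a Pearson r of 0.936 to 0.986 across the 14399 tested probe sets. As a check of the tissue, the 8 measured cardiomyocyte markers had a mean log2 intensity of 13.83 to 14.10 over the stem cell animals and 13.80 to 13.98 over the saline animals. Of 5 skeletal muscle markers on the array, TNNI2 alone passed the filter on low intensities, whereas MYH2, TNNT3, TNNC2 and MYLPF did not. Stem cell animal 6 was at the end of several marker lists. It had the highest cardiomyocyte marker mean, at 14.10. Its means of the fibroblast and scar matrix, macrophage, and smooth muscle and pericyte markers were the lowest, at 7.70, 6.16 and 8.78. Close behind were stem cell animal 3 for cardiomyocytes and macrophages, at 14.08 and 6.21, and saline animal 1 for scar matrix, at 7.78. For smooth muscle and pericytes the next lowest was stem cell animal 2, at 9.10. Animal 6 of the stem cell group was also the lowest of all 13 arrays for 4 of the 9 member probe sets, both of RCAN1 among them. The values without animal 6 are therefore given beside the results they alter most. How often this animal was lowest over all probe sets tested was not counted. In such bulk samples fewer cells of a type and less RNA per cell cannot be told apart.

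The main comparison asked whether these genes differed in level between infarcted hearts given stem cells and infarcted hearts given saline. No member differed beyond the spread between animals. RCAN1 had the smallest p-values, with log2 differences of -0.78 and -1.24 on its 2 probe sets, and these were -0.18 and -0.32 without 2 of the 7 stem cell animals. ANKRD1 on its brighter probe set, and FHL1, had group means that nearly coincided. Of the 9 probe sets, 7 had a log2 difference below 0, as had 47.2% of all probe sets tested, and the median difference was -0.292 for the members against 0.0169 for all. By limma with Benjamini-Hochberg adjustment over all probe sets, 0 of 9 members passed an adjusted p of 0.05, as did 0% of all probe sets, and 0 of 9 had an unadjusted p under 0.05, a level reached by 10.5% of all (5.15% lower and 5.4% higher after stem cells). The groups overlapped for all 9, and 0.278% of all probe sets showed groups that did not. The 95% intervals, given below with each gene, still leave room for sizeable differences in either direction for several of these genes.

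**Figure D1:**
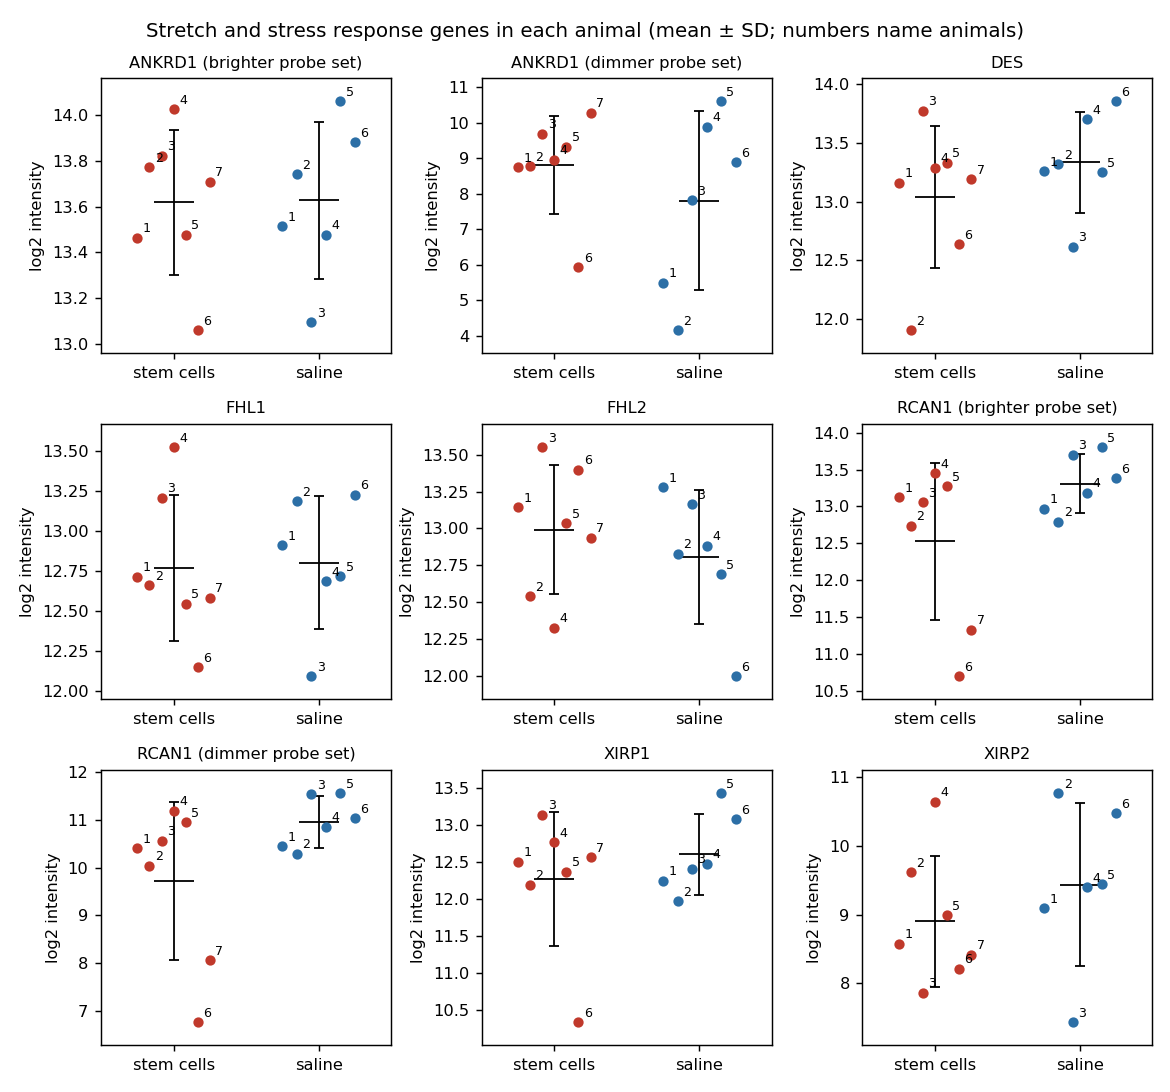
Log2 intensity of the 9 probe sets tested, 1 panel each with its own vertical axis. Points are animals, numbered as in the labels, with 7 stem cell animals on the left and 6 saline animals on the right, and bars give the group mean ± SD. The groups overlap in every panel, and stem cell animals 6 and 7 lie far below the rest for both RCAN1 probe sets.

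Among the proteins docked on titin, ANKRD1, the cardiac ankyrin repeat protein, gave almost the same level in both groups on its brighter probe set. The lowest, median and highest log2 intensities were 13.06, 13.71 and 14.03 in the stem cell animals, against 13.09, 13.63 and 14.06 in the saline animals. The ranges coincided nearly end to end, with stem cell animal 6 lowest and saline animal 5 highest. The log2 difference was -0.01 ± 0.16 (SE, n = 7 and 6), with a 95% interval of -0.36 to 0.34 and an adjusted p of 0.987 (limma).

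The dimmer ANKRD1 probe set behaved differently. It ran over 5.93, 8.95 and 10.28 in the stem cell animals and over 4.15, 8.35 and 10.60 in the saline animals. Low values came from stem cell animal 6 and saline animals 1 and 2, while the other 10 animals lay at 7.82 or above. Its log2 difference was 1.01 ± 0.95 (SE), with an interval of -1.01 to 3.02 and an adjusted p of 0.708 (limma), and it was 0.28 without saline animal 2, 1.57 without saline animal 5 and 1.49 without stem cell animal 6. The 2 probe sets were only loosely related over the 13 arrays, with a Pearson r of 0.388 (permutation p of 0.189) and a Spearman rho of 0.435 (permutation p of 0.139). The within-group r was 0.729 in the 7 stem cell animals and 0.232 in the 6 saline animals, and r was 0.219 without the 2 arrays farthest from the median and 0.242 without stem cell animal 6. Which of them follows the ANKRD1 transcript more closely was not tested, and below, ANKRD1 stands for the brighter probe set unless the dimmer is named.

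FHL1, a LIM domain protein that binds the extensible part of titin, spanned 12.15, 12.66 and 13.53 as lowest, median and highest after stem cells and 12.09, 12.81 and 13.23 after saline. Stem cell animal 6 and saline animal 3 were the lowest of their groups, and stem cell animal 4 lay above every saline animal. Its difference on the log2 scale was -0.03 ± 0.22 (SE), with an interval of -0.50 to 0.43 and an adjusted p of 0.962 (limma). FHL2, its relative, which docks on titin and in mice restrains calcineurin signalling, spanned 12.33, 13.03 and 13.55 after stem cells and 11.998, 12.86 and 13.28 after saline. Its highest values came from stem cell animals 3 and 6, and its lowest from saline animal 6. Between the groups FHL2 differed by 0.18 ± 0.22 (SE), with an interval of -0.28 to 0.65 and an adjusted p of 0.779 (limma), and it was 0.02 without saline animal 6 and 0.29 without stem cell animal 4.

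DES encodes desmin, the intermediate filament of muscle that links Z-discs sideways. On its brighter probe set it spanned 11.90, 13.19 and 13.77 after stem cells and 12.62, 13.29 and 13.85 after saline. Stem cell animal 2 lay below all others, and the remaining animals overlapped. For DES the difference was -0.29 ± 0.26 on the log2 scale (SE), with an interval of -0.84 to 0.26 and an adjusted p of 0.689 (limma), and it was -0.10 without stem cell animal 2. That animal also had the highest mean log2 ratio of 3' to 5' control probe sets, 2.39 against a lowest of 0.781, a ratio that rises as RNA degrades. Over the 13 arrays DES and this ratio had a Pearson r of -0.657 (permutation p of 0.0164) and a Spearman rho of -0.527 (permutation p of 0.0665), with an r of -0.799 in the stem cell group and -0.577 in the saline group. The relation was at -0.409 without the 2 arrays farthest from the median ratio, and its adjusted p over 63 relations was 0.167. With the ratio as a covariate the DES difference was -0.40 ± 0.19 (SE), with an adjusted p of 0.367 (limma).

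XIRP1, the Xin protein of the intercalated disc, had a lowest, median and highest level of 10.34, 12.51 and 13.14 after stem cells and 11.98, 12.45 and 13.44 after saline. Stem cell animal 6 was far below the rest, and the 2 medians nearly coincided. The log2 difference of -0.33 ± 0.37 (SE), with an interval of -1.11 to 0.44 and an adjusted p of 0.754 (limma), shrank to -0.01 without that animal. XIRP2, the larger Xin relative, spanned 7.86, 8.58 and 10.64 after stem cells and 7.43, 9.42 and 10.77 after saline. High animals were found in both groups, namely stem cell animal 4 and saline animals 2 and 6, and so were low ones, with saline animal 3 lowest. The difference, on the log2 scale, was -0.53 ± 0.51 (SE), with an interval of -1.63 to 0.56 and an adjusted p of 0.714 (limma), and it was -0.27 without saline animal 2 and -0.94 without saline animal 3.

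RCAN1, the calcineurin-binding feedback gene, had the smallest p among the members. Its brighter probe set spanned 10.70, 13.06 and 13.45 in the stem cell animals and 12.79, 13.28 and 13.80 in the saline animals. Stem cell animals 6 and 7, at 10.70 and 11.33, were low, while the other 5 stem cell animals lay between 12.74 and 13.45. The range from the lowest to the highest animal was 8.61-fold. The means were 12.52 ± 1.07 after stem cells and 13.31 ± 0.40 after saline (SD, n = 7 and 6). The log2 difference was -0.78 ± 0.40 (SE), with an interval of -1.63 to 0.07, an unadjusted p of 0.0691 and an adjusted p of 0.506 (limma). An exact permutation test over the 1716 splits into 7 and 6 gave a two-sided p of 0.135.

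The dimmer RCAN1 probe set gave the same picture on a wider scale. It spanned 6.77, 10.41 and 11.19 after stem cells and 10.29, 10.94 and 11.56 after saline, with stem cell animals 6 and 7 again lowest, at 6.77 and 8.07. The log2 difference was -1.24 ± 0.61 (SE), with an interval of -2.54 to 0.05, an adjusted p of 0.490 (limma) and an exact permutation p of 0.104. The 2 probe sets ordered the animals almost identically, with a Pearson r of 0.996 and a Spearman rho of 0.984, and a permutation p of 1e-05 for each, the smallest that 100000 resamples can give. Within the groups r was 0.996 in stem cell animals and 0.994 in saline animals, and it was 0.979 without the 2 arrays farthest from the median.

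On both RCAN1 probe sets 3 of 7 stem cell animals, 2, 6 and 7, lay below every saline animal. Counts chosen after these values were seen showed at least 3 such stem cell animals for 15.4% of all probe sets tested and at least 2 for 29.1%, and among the 9 member probe sets only the 2 of RCAN1 had either. Without stem cell animal 6 the differences were -0.48 and -0.75, and without stem cell animals 6 and 7 together, an exclusion chosen after the values were seen, they were -0.18 and -0.32. The tissue measure, the cardiomyocyte marker mean minus the fibroblast and scar matrix marker mean, was 6.41 in animal 6, the highest of all 13 arrays and above every saline animal, and 6.15 in animal 7, the 11th from the lowest. The other 5 stem cell animals lay at 4.45 to 5.77 and the saline animals at 4.31 to 6.15. Of the 8 scar matrix genes in the tissue measure, COL1A2 and COL3A1 lay near the filter level of 3.36. Their mean log2 intensities were 3.83 and 3.83 after stem cells and 3.52 and 3.48 after saline. RCAN1 on its brighter probe set and this measure had a Pearson r of -0.793 in the stem cell group and 0.352 in the saline group. Over all 13 arrays r was -0.450 (permutation p of 0.12, adjusted 0.36 over 63 relations) and rho -0.275, and r was -0.217 without animal 6. The part of tissue makeup in the low RCAN1 values was not tested further. With this measure as a covariate the RCAN1 differences were -0.79 and -1.26, with adjusted p of 0.414 and 0.394 (limma). The cardiomyocyte and scar matrix marker means were 13.94 and 8.50 after stem cells, and 13.87 and 8.41 after saline. The groups thus had nearly the same mean of the measure, and the covariate could move their difference little. It also fitted 1 slope to both groups, whose r differed in sign.

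**Figure D2:**
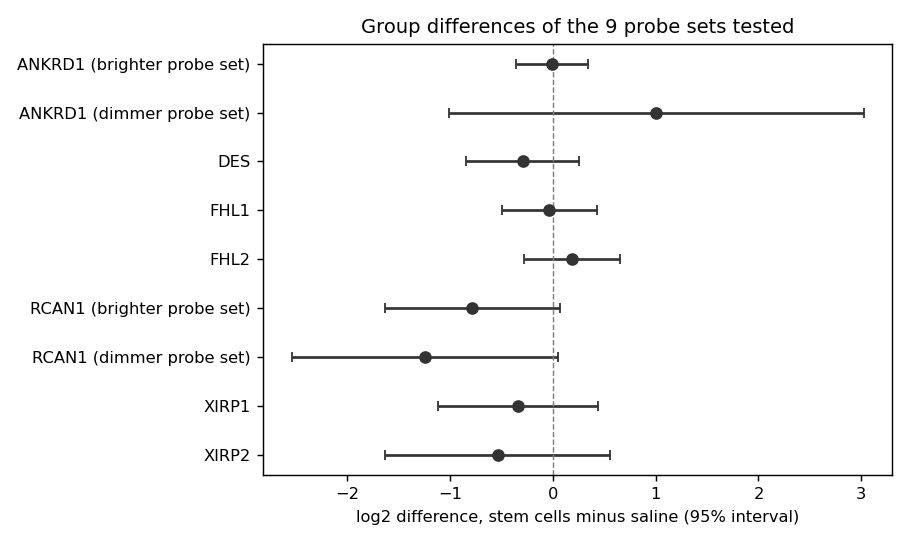
Log2 difference of each probe set tested, stem cells minus saline, with its 95% interval from limma on the horizontal axis. All 9 intervals include 0. The dimmer RCAN1 probe set reaches furthest below it, to -2.54, and the dimmer ANKRD1 probe set furthest above it, to 3.02.

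The members differed widely in how much they varied between animals. The SD within groups, pooled over both, was 1.99 for the dimmer ANKRD1 probe set, 1.27 and 0.836 for RCAN1, 1.06 for XIRP2 and 0.761 for XIRP1 on the log2 scale. These stood at the 99.8, 99.0, 95.8, 98.1 and 94.5 percentiles of all probe sets tested, whose median SD was 0.321. DES followed at 0.532, FHL2 at 0.445 and FHL1 at 0.440, whereas the brighter ANKRD1 probe set, at 0.328, was close to the median. Without stem cell animal 6 the SD was 0.451 for XIRP1, at the 77.3 percentile, 0.615 and 0.878 for RCAN1, at 90.5 and 96.8, and 1.84 for the dimmer ANKRD1 probe set, at 99.8. The animals at the ends were not the same for all genes. The lowest of 13 was stem cell animal 6 for 4 of 9 probe sets, and saline animal 3 for 2, and saline animal 5 was the highest for 5. Those of animal 6 were both RCAN1 probe sets, XIRP1 and the brighter ANKRD1 probe set. Those of saline animal 5 were both probe sets of RCAN1, both of ANKRD1, and XIRP1. The same counts over all probe sets tested were not made.

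The second question was whether these genes moved together from animal to animal. With 1 probe set per gene, the brighter, 5 of 21 pairs were correlated over the 13 arrays (Pearson r, permutation p adjusted over the 21 pairs). The smallest absolute r among the 5 was 0.695, a size reached by 4.02% of all pairs of the 5196 genes tested. The median r was 0.348 for the member pairs against 0.0324 for all pairs of genes. The probe sets used for the members were bright, at the 83.9 to 99.2 percentiles of mean intensity. The pairs of all genes include dim ones and were not matched for intensity. Over the 13 arrays the 6 pairs with FHL2 had r between -0.791 and -0.0835, while the 15 pairs without it were all above 0. Of the FHL2 pairs only that with XIRP2 passed, and the others had adjusted p of 0.0777 to 0.786. Within the groups the signs did not all hold. For example, r was 0.389 for DES with FHL2 in the stem cell animals and -0.611 for FHL1 with RCAN1 in the saline animals.

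**Figure D3:**
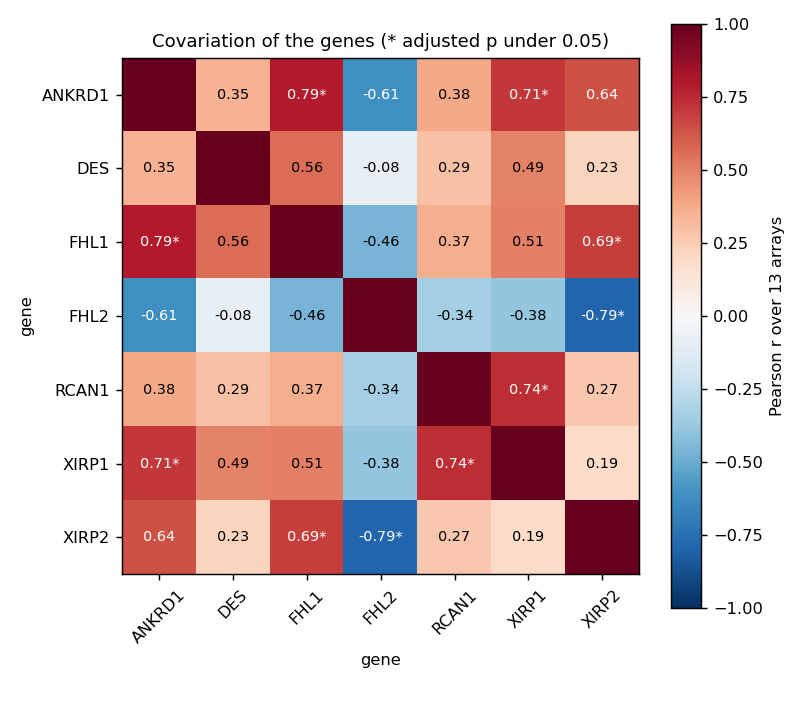
Pearson r of log2 intensities over the 13 arrays for each pair of the 7 genes on the brighter probe set of each, with colour from -1 to 1 and an asterisk where the permutation p adjusted over 21 pairs was under 0.05. The FHL2 row is negative throughout, and the 5 starred pairs have absolute r of 0.695 to 0.791.

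ANKRD1 and FHL1, both partners of titin, correlated at r = 0.791 (permutation p of 0.00126, adjusted 0.0132) and rho = 0.757 (permutation p of 0.00386, adjusted 0.0405). Within the groups, where no p was computed, r was 0.871 in the 7 stem cell animals and 0.701 in the 6 saline animals. Without the 2 arrays farthest from the ANKRD1 median, stem cell animal 6 and saline animal 3, r was 0.551. With the mean of both ANKRD1 probe sets in place of the brighter, r was 0.127, and with the dimmer alone, a comparison chosen after the values were seen, it was 0.01.

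XIRP2 and FHL2 correlated inversely at r = -0.791 (permutation p of 0.00124, adjusted 0.0132) and rho = -0.841 (permutation p of 0.00064, adjusted 0.0134). Stem cell animal 4 and saline animal 6 combined high XIRP2 with the 2 lowest FHL2 values, while saline animal 2, the highest for XIRP2, lay near the middle for FHL2. The relation was -0.942 in the stem cell animals and -0.633 in the saline animals, and -0.727 without stem cell animal 3 and saline animal 6, the 2 arrays farthest from the FHL2 median.

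XIRP1 correlated with RCAN1 at r = 0.741 (permutation p of 0.00912, adjusted 0.0383) and with ANKRD1 at r = 0.711 (permutation p of 0.00392, adjusted 0.0274). XIRP2 correlated with FHL1 at r = 0.695 (permutation p of 0.00879, adjusted 0.0383). By rank the 3 relations did not pass, with rho of 0.599, 0.627 and 0.615, permutation p of 0.0337, 0.0239 and 0.0284, and adjusted p of 0.0885, 0.0852 and 0.0852. In the stem cell group r was 0.741, 0.835 and 0.497, and in the saline group it was 0.763, 0.610 and 0.952, in the same order. Without the 2 arrays farthest from the median of the first gene by name, r was 0.636, 0.631 and 0.471. For ANKRD1 with XIRP1, r was 0.708 with the mean of both ANKRD1 probe sets (adjusted p of 0.0352) and 0.646 with the dimmer alone. The 2 Xin genes were not correlated with each other, at r = 0.188 (permutation p of 0.558, adjusted 0.586).

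Of single animals, number 6 of the stem cell group mattered most for these relations. Without it 0 of 21 pairs passed, and r was 0.727 for ANKRD1 with FHL1, -0.773 for FHL2 with XIRP2, 0.345 for RCAN1 with XIRP1, 0.561 for ANKRD1 with XIRP1 and 0.668 for FHL1 with XIRP2, with adjusted p of 0.0824, 0.0672, 0.584, 0.242 and 0.119. The first 2 relations passed in the other 12 fits with 1 animal left out. ANKRD1 with XIRP1 passed in 10 of 13 such fits, failing also without saline animal 5 (0.651) or 6 (0.691). RCAN1 with XIRP1 passed in 7, failing also without stem cell animals 1 (0.741) or 4 (0.735) and saline animals 2 (0.748), 5 (0.709) or 6 (0.733). FHL1 with XIRP2 passed in 5, failing also without stem cell animals 1 (0.697), 4 (0.612) or 7 (0.687) and saline animals 2 (0.662), 3 (0.598), 5 (0.702) or 6 (0.655). Over these fits the count of pairs past the threshold was between 0 and 8, the highest without stem cell animal 3, and it was 3 without stem cell animal 1 or 4 or saline animal 2, and 2 without saline animal 5 or 6. With the tissue measure taken out of both genes, an alternative added after the values were seen, 5 pairs passed, DES with FHL1 at 0.671 among them, and r was 0.754 for ANKRD1 with FHL1, -0.762 for FHL2 with XIRP2, 0.751 for RCAN1 with XIRP1, 0.704 for ANKRD1 with XIRP1 and 0.619 for FHL1 with XIRP2, the last with an adjusted p of 0.0791. With the 3' to 5' ratio taken out in the same way, 7 pairs passed, the 5 of the unadjusted values, in the order just given, at r of 0.791, -0.782, 0.775, 0.733 and 0.720, together with DES with FHL1 at 0.756 (adjusted p of 0.0143) and ANKRD1 with XIRP2 at 0.661 (adjusted p of 0.0390).

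**Figure D4:**
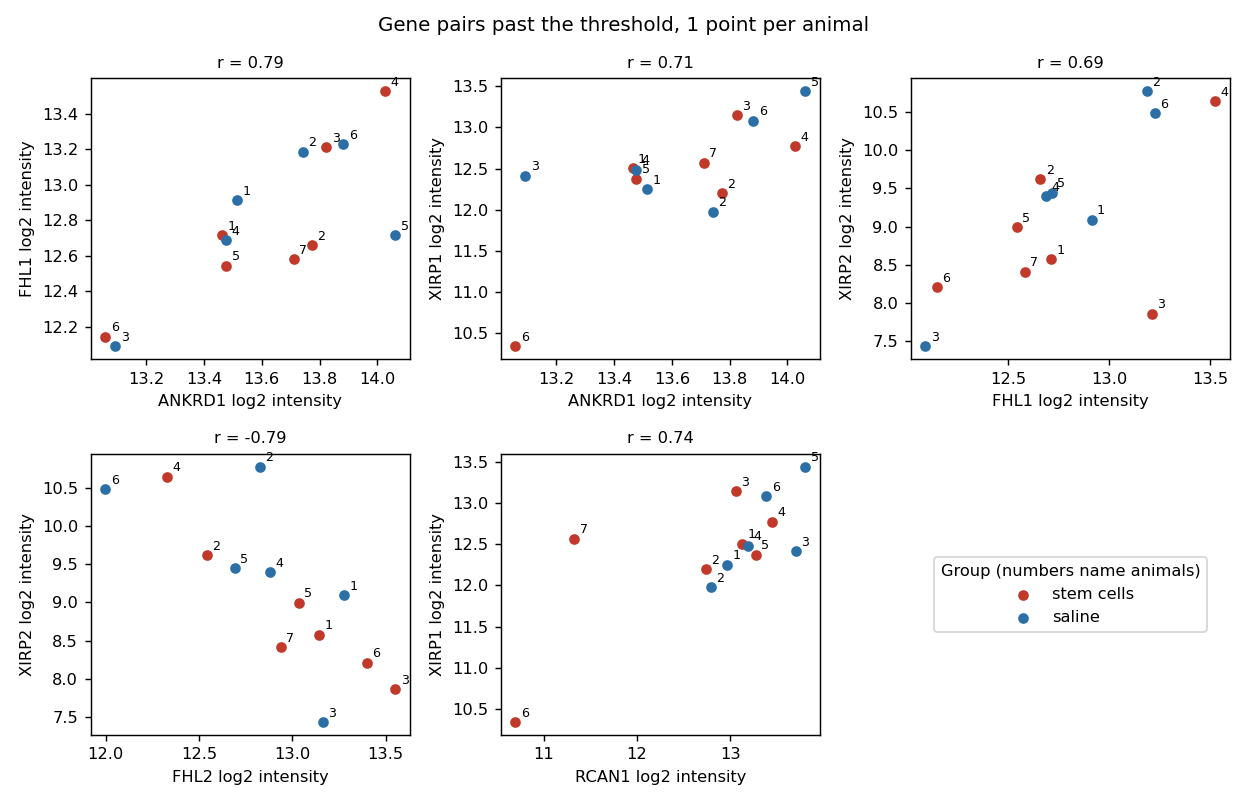
Log2 intensities of the 5 gene pairs past the threshold, with the brighter probe set of each gene and 1 point per animal, numbered as in the labels, stem cell animals in red and saline animals in blue. Animal 6 of the stem cell group lies at the low end of ANKRD1, RCAN1 and XIRP1, and the FHL2 with XIRP2 panel falls from left to right in both groups.

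Marker levels of other cell types were set beside the members as well. Of 63 relations between 7 genes and 9 measures of the arrays, 12 had an unadjusted permutation p under 0.05 by Pearson r and 0 passed after adjustment, the smallest adjusted p being 0.167. The same count was not made for other genes, so whether 12 of 63 is unusual on these arrays is not known. The relation of DES to the 3' to 5' ratio is among the 12 and was given above.

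Smooth muscle and pericyte markers, of which 6 of 7 were tested, had a Pearson r of 0.730 with DES and 0.730 with FHL1 (permutation p of 0.00576 and 0.00467), with rho of 0.725 and 0.676 (permutation p of 0.00665 and 0.0133). Without stem cell animal 6 these were 0.732 and 0.641, and without the 2 arrays farthest from the median of the marker mean they were 0.452 and 0.739. ANKRD1, XIRP1 and XIRP2 had an r of 0.635, 0.634 and 0.578 with the same markers (permutation p of 0.0186, 0.0249 and 0.0369), with rho of 0.644, 0.412 and 0.610 (permutation p of 0.0190, 0.162 and 0.0303). Without animal 6 these were 0.447, 0.229 and 0.551, and without the 2 farthest arrays they were 0.709, 0.0463 and 0.848. The XIRP1 relation thus rests on few arrays.

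Endothelial markers, 6 of 8 tested with KDR and TIE1 below the filter, had an r of 0.690 with FHL1, 0.652 with DES, 0.645 with ANKRD1 and 0.587 with XIRP1 (permutation p of 0.00927, 0.0132, 0.0171 and 0.0272), and rho of 0.698, 0.566, 0.589 and 0.462 (permutation p of 0.00989, 0.0469, 0.0372 and 0.116). Without animal 6 these r were 0.618, 0.606, 0.550 and 0.479, and without the 2 farthest arrays 0.765, 0.754, 0.572 and 0.679. Cardiomyocyte markers had an r of 0.583 with FHL2 and -0.535 with RCAN1 (permutation p of 0.0368 and 0.0471), and rho of 0.456 and -0.291 (permutation p of 0.120 and 0.333). Without animal 6 these r were 0.504 and -0.170, and without the 2 farthest arrays 0.227 and -0.247, so both rest on few arrays.

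Those marker means were, over the stem cell and the saline animals, 8.78 to 10.38 and 9.56 to 10.64 for smooth muscle and pericytes and 8.32 to 9.28 and 8.71 to 9.32 for endothelium. They were 7.70 to 9.39 and 7.78 to 9.51 for fibroblasts and scar matrix, 6.16 to 7.35 and 6.60 to 7.83 for macrophages, and 11.82 to 12.74 and 11.59 to 12.62 for fat cells. Of these lists 6, 6, 8, 6 and 2 genes were tested, and the fat cell genes ADIPOQ and LEP were below the filter. All 6 macrophage markers measured had a negative difference, with a median of -0.500, and 47.2% of all probe sets tested were below 0. A negative difference with an unadjusted p under 0.05 (limma) was found for 2 of the 6 and for 5.15% of all. In the other lists such a p was found for CNN1 and ENG, both lower, and TEK and COL3A1, both higher. Negative differences were found for 4 of 6 smooth muscle and pericyte, 4 of 6 endothelial, 2 of 8 scar matrix and 1 of 2 fat cell markers. In these lists 0 genes passed an adjusted p of 0.05. The part of these cell types in the members' values was not tested.

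For each member the 3 genes outside the set with the highest Pearson r over the 13 arrays are given as a description, out of 5189 genes. XIRP1 was followed most closely by CYR61, a secreted matrix protein, at 0.960, then by NYNRIN at 0.931 and by TNFRSF12A, the receptor of the cytokine TWEAK, at 0.913. CYR61 spanned 6.19 to 11.99 in the stem cell animals, with 6.19 in animal 6, and 10.23 to 12.07 in the saline animals. RCAN1 was followed by the immediate early gene IER3 at 0.902, the transcriptional repressor TGIF1 at 0.896 and PRR13 at 0.892, and animal 6 was lowest for all of them. IER3 stood at 3.10 in that animal, against a median of 8.35 in the stem cell group and 8.92 in the saline group. Without animal 6, r was 0.888, 0.80 and 0.716 for the 3 genes beside XIRP1 and 0.774, 0.832 and 0.748 for the 3 beside RCAN1.

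FHL2 was most like FBXO32, the muscle ubiquitin ligase subunit atrogin-1, at 0.918, the endothelin receptor EDNRA at 0.879 and MXI1 at 0.866. XIRP2 was most like DSE, an enzyme of dermatan sulfate synthesis, at 0.899, the scar protein osteopontin, SPP1, at 0.894 and the actin crosslinker ACTN1 at 0.849. SPP1 spanned 5.13 to 9.21 in the stem cell animals and 5.16 to 9.78 in the saline animals. The brighter ANKRD1 probe set was most like BAG3, a co-chaperone that maintains the Z-disc, at 0.867, then SERPINB2 at 0.863 and LHFPL2 at 0.826. FHL1 was most like LRRC1 at 0.850, the AMP-activated kinase subunit PRKAG2 at 0.843 and SAMD4A at 0.834, and DES was most like the microtubule-binding MAP4 at 0.914, PLXNA2 at 0.871 and ARHGDIA at 0.870. Several of these genes were dim, with NYNRIN and ARHGDIA near the filter level. Among these 21 genes, 0 passed an adjusted p of 0.05 between the groups (limma) and 0 had an unadjusted p under 0.05.

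Other genes of the same pathways were taken from lists, with 1 probe set per gene. Of 9 measured partners in the Z-disc and the titin spring, 6 had a negative difference, the median was -0.0262, and 0 passed at an adjusted or an unadjusted p of 0.05. PDLIM5, which binds actinin at the Z-disc, was at 0.16 ± 0.085 (log2 difference, SE), the small heat shock protein CRYAB, which protects desmin and titin, at -0.18 ± 0.12, and TTN itself at 0.27 ± 0.21. Of 12 measured genes of intermediate filaments and costameres, the anchoring sites of the membrane, 7 were negative, with a median of -0.00715 and 0 passing either p. The nuclear lamin gene LMNA was at -0.73 ± 0.41, talin, TLN1, at -0.39 ± 0.26 and dystrophin, DMD, at 0.20 ± 0.16.

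Around calcineurin, the partner of RCAN1, 2 of 5 measured genes were negative and 0 passed either p, with a median of 0.161. The kinase DYRK1A, which acts against NFAT, was at 0.27 ± 0.15, the catalytic subunits PPP3CB at 0.17 ± 0.15 and PPP3CC at -0.10 ± 0.15. Of 7 measured genes of the SRF, TEAD and YAP pathways, which turn mechanical signals into transcription, 5 were negative, with a median of -0.111. TEAD4, a DNA-binding factor of the YAP pathway, was at -0.77 ± 0.28, with an unadjusted p of 0.0145 and an adjusted p of 0.420 (limma). An unadjusted p under 0.05 with a negative difference was found for 5.15% of all probe sets. ABRA, an actin-binding activator of SRF, was at -0.69 ± 0.48 and TEAD1 at 0.16 ± 0.12. Among 11 fetal and load genes 5 were negative, with a median of 0.0718. The sodium-calcium exchanger SLC8A1 was at 1.16 ± 0.52 (unadjusted p of 0.0435, adjusted p of 0.458, limma), and an unadjusted p under 0.05 with a positive difference was found for 5.4% of all probe sets. The natriuretic peptide genes were at -0.77 ± 0.38 for NPPA and -1.50 ± 0.76 for NPPB. Their unadjusted p were 0.0645 and 0.0664 and their adjusted p 0.497 and 0.501 (limma). In these 5 lists 0 genes passed an adjusted p of 0.05 over all probe sets.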

How the data were processed

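The authors deposited linear-scale intensities per probe set for 13 porcine arrays. Per the submitters' processing notes the tool was GCRMA, whose version and settings the sources used here do not state. It corrects background, normalizes between arrays and summarises probes, and so removes any shift common to most genes.

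Of 24123 probe sets, 124 controls were left out and the rest put on the log2 scale, with no pseudocount. Names came from the platform annotation, in which 10069 of the others had 1 symbol, 198 had several and 13732 had none. Symbols can be old. No build is stated for the array, so no coordinates are given. Probe sets with a mean above the 40th percentile were tested (14399, with 5196 named genes). The highest mean of 17 tag controls was 2.58.

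The groups were compared with limma 3.58.1 in R 4.3.3 (lmFit, and eBayes with a trend), adjusted by Benjamini-Hochberg over all tested probe sets. The fit was tested on simulated data. Correlations used 100000 resamples in Python 3.11.15. The number of arrays limits precision, with a median SE of 0.18. No batch is given.

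The members and lists were chosen with earlier results of these data known. All members were described whatever their values, with the 3 most similar genes each and up to 3 genes with the smallest p per list, and a gene was represented by its tested probe set with the highest mean. Alternatives were no filter, the 60th percentile, a second quantile normalization, median centring, array weights, a floor, a robust variance, no trend in the variance, 1 probe set per gene, covariates for tissue makeup and for the 3' to 5' ratio, a replicate block, Spearman's rho, the mean of a gene's probe sets, taking the group means out of the pairs, and leaving out each animal. Leaving out stem cell animals 6 and 7 together, and taking the tissue measure or the 3' to 5' ratio out of the pairs, were added after the values were seen, as were the correlations and SDs without stem cell animal 6 and those on the dimmer ANKRD1 probe set.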

Additional observations from a re-analysis of the deposited data

Results flagged for a closer look

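Stem cell animal 6 was the lowest of its group by a wide gap for 2 of the 9 probe sets. It had a log2 intensity of 10.34 for XIRP1, where the next lowest stem cell animal had 12.20. On the dimmer ANKRD1 probe set it had 5.93, where the next lowest stem cell animal had 8.74. In both cases the gap, as a share of the group's range, exceeded Dixon's critical value for 7 samples. A set of 18 groups was examined in this way, and chance flags about 1 in 20. In the same animal the smooth muscle and pericyte marker mean was 8.78 and the fibroblast and scar matrix marker mean 7.70, both the lowest of 13 arrays. The next lowest were 9.10 in stem cell animal 2 and 7.78 in saline animal 1. The part of these cell types in the low values of animal 6 was not tested.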

How the results depend on the processing

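Over 232 refits of a member probe set under another setting or with animals left out, 0 passed an adjusted p of 0.05 (limma). Negative differences were found for 5 to 7 of the 9 in each setting, and for 6 of 7 with 1 probe set per gene. With the replicate block, 0 members passed, 7 were negative, and the RCAN1 differences were -0.58 and -0.97. No saline animal has the number 7, so the block leaves stem cell animal 7 out of the comparison. The RCAN1 differences were the same, -0.58 and -0.97, when that animal alone was left out. Deviations of same-numbered animals correlated at -0.266 to 0.237, so the numbers were not taken to pair animals. Over all probe sets 0 to 1 passed with 1 animal left out, the 1 without saline animal 5. The brighter ANKRD1 probe set and FHL1, whose differences were near 0, changed sign. They were at 0.0516 and 0.0351 after quantile normalization, 0.107 and 0.0787 with array weights, 0.0847 and 0.128 without stem cell animals 6 and 7, and between -0.116 and 0.0842 and between -0.177 and 0.0696 with 1 animal left out. The count of correlated pairs, 5 of 21, was 2 with the mean of a gene's probe sets, 2 by Spearman's rho, 0 without stem cell animals 6 and 7, 5 with the tissue measure and 7 with the 3' to 5' ratio taken out, and 0 to 8 with 1 animal left out. With the mean of its probe sets ANKRD1 had an r of -0.0598 with XIRP2. With the group means taken out, r was 0.791 for ANKRD1 with FHL1 and -0.779 for FHL2 with XIRP2. In the same setting it was 0.733 for RCAN1 with XIRP1, 0.727 for ANKRD1 with XIRP1 and 0.709 for FHL1 with XIRP2. Without stem cell animals 6 and 7, r was 0.0237 for DES with FHL2, -0.252 for FHL1 with RCAN1, -0.203 for RCAN1 with XIRP2 and -0.0739 for XIRP1 with XIRP2. With 1 animal left out, r lay between -0.0277 and 0.624 for ANKRD1 with RCAN1, -0.393 and 0.217 for DES with FHL2, and -0.0662 and 0.329 for XIRP1 with XIRP2. The cause was not tested.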
